A study of Mus musculus with 104 samples.

Results

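Gapdh, the reference gene of the study's quantitative PCR assays, was described beside 7 genes of hepatic glucose handling: Pck1, G6pc, Fbp1, Pcx, Pklr, Pkm and Slc2a2. These 8 genes were matched by symbol among the 55416 genes of the count files, and all were found. The values come from RNA-seq of primary mouse hepatocytes from a commercial source, whose strain and age are not given in the sources used here. Cells given siRNA went through lipid transfection (Lipofectamine RNAiMax) in plates, and all libraries are from 24 h. What the mock cells received is not described in the study's methods. The controls were 8 libraries labelled mock, and each of 6 siRNAs (D1 to D6) was given at 0.1, 1, 10 and 50 nM, with 4 libraries at each dose. D1, D2 and D3 share a sequence against Hao1: D1 is the parent, and D2 and D3 hold a glycol nucleic acid (GNA) residue at guide position 5, GNA-C in D2 and the isomer GNA-isoC in D3. D4, D5 and D6 share a sequence against Ttr: D4 is the parent, and D5 and D6 hold GNA-G and GNA-isoG at guide position 6. The labels number the replicates without saying that they came from separate cultures, so the p-values measure only the spread between libraries, which may be technical.

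Hepatocytes release glucose through gluconeogenesis, which starts from pyruvate. Pyruvate carboxylase (Pcx) makes oxaloacetate, phosphoenolpyruvate carboxykinase (Pck1) makes phosphoenolpyruvate, fructose-bisphosphatase (Fbp1) runs against phosphofructokinase, and glucose-6-phosphatase (G6pc) frees glucose, which crosses the membrane through the transporter GLUT2 (Slc2a2). Glyceraldehyde-3-phosphate dehydrogenase (Gapdh) serves both directions, and pyruvate kinase ends glycolysis, with Pklr coding for the liver and red cell forms and Pkm for the M forms of most other cells. Glucagon raises Pck1 and G6pc transcription in liver and insulin lowers it.

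The libraries held between 3409963 and 6160626 reads counted in genes, the sum of 2 sequencing runs, with a median of 4983570. All 12 hepatocyte markers checked were at or above 1 CPM (the usual count of a gene scaled to library depth). Their levels were uneven, with means over all libraries of 14500 CPM for Alb but 31.8 CPM for Cyp2e1. Tdo2, Cps1 and Asgr1 were lower still, at 5.2, 4.85 and 4.72 CPM. Of the 8 Kupffer cell, 8 sinusoidal endothelial and 8 stellate cell markers, 7 in each list were under 1 CPM, and Marco, Vsig4 and C1qb, Kupffer cell markers, had no read in any library. The exceptions were Cd68 (Kupffer cell, 22.8 CPM), Oit3 (sinusoidal endothelial, 3.93 CPM) and Reln (stellate cell, 18.5 CPM). The 6 cholangiocyte markers were all above 1 CPM, and their summed level was 158.6 CPM in mock and from 146.5 CPM (D5 at 0.1 nM) to 234.4 CPM (D4 at 10 nM) in the siRNA groups. Hao1 fell to between 2.39% and 41.1% of mock with D1 to D3, and Ttr to between 0.159% and 2.86% with D4 to D6. The fall of Ttr with D5 at 0.1 nM was not called (edgeR adjusted p = 0.128), and replicate 2 of that group stood apart with 73 CPM of Ttr against 1.16 to 3.34 CPM in the rest. Replicate 3 of D3 at 10 nM, a Hao1 siRNA, also stood apart, with 441 CPM of Ttr against 934 to 1000 CPM. Without both libraries, an alternative chosen after seeing the data, the counts of member calls given below were unchanged at 17, 7 and 11.

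A guide can lower unintended transcripts through its seed, the bases near its 5′ end, where a 3′ UTR holds the complementary letters. The letters searched, on the transcript strand only, were ATCGACA for D1 to D3, present in the 3′ UTR of 248 of 20757 genes (1.19%), and CTCTATA for D4 to D6, present in 1605 genes (7.73%). None of the 8 members held either match in the 3′ UTR of its canonical transcript (GRCm39, GENCODE). Nor did any hold the overlapping forms TCGACAA or TCTATAA, found without the longer match in 0.708% and 8% of genes. The 77 other glucose genes described below include the regulator Nr3c1, for which the result of this search is not given here. Among the rest, 4 held a match. They were Foxo1 and Foxo3, transcription factors restrained by insulin, Hnf4a, a hepatocyte nuclear receptor, and Sik1, a kinase that acts on CREB coactivators. These sites, in capitals, are printed because their genes are compared by siRNA below.
Foxo3, D4 match, chr10:42062109-42062115, minus strand: gtggaacagaaCTCTATAacatatgcaaa
Foxo3, D4 match, chr10:42061172-42061178, minus strand: aggtgagatatCTCTATAtatataggctt
Foxo1, D4 match, chr3:52258856-52258862, plus strand: ggatgctgtttCTCTATAggctgaaacga
Foxo1, D4 match, chr3:52260140-52260146, plus strand: ggcaagaagagCTCTATActaaattatat
Hnf4a, D4 match, chr2:163412508-163412514, plus strand: ctgctaccatcCTCTATAccttcctccgc
Sik1, D1 match, chr17:32063628-32063634, minus strand: tgtgtgtcagaATCGACAagcactttact

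In GRCm39 the genes lie at chr6:125135289-125143518 (Gapdh, minus strand), chr9:59563364-59586663 (Pkm, plus), chr3:89043449-89054619 (Pklr, plus), chr19:4559902-4672189 (Pcx, plus), chr13:63012567-63036263 (Fbp1, minus), chr3:28752051-28785508 (Slc2a2, plus), chr11:101258369-101268729 (G6pc, plus) and chr2:172994744-173001066 (Pck1, plus), and their levels ran from abundant to nearly unread. Per kilobase of canonical transcript, the mock level was 519.6 ± 21.5 CPM per kilobase for Gapdh (SD, n = 8), 126.8 ± 11 for Pkm, 27.1 ± 2.17 for Pklr and 21.18 ± 2.2 for Pcx. It was 9.09 ± 2.03 for Fbp1, 0.744 ± 0.203 for Slc2a2, 0.102 ± 0.0943 for G6pc and 0.0551 ± 0.0648 for Pck1. Neighbours in this order did not overlap between mock libraries, except Pklr with Pcx and G6pc with Pck1. On this scale Pkm was above the liver-type gene Pklr in all 8 mock libraries. Whether reads were counted by strand is not given in the sources used here, and 81.5% of the Gapdh transcript lies over Iffo1 on the other strand, 36.1% of Pklr over Hcn3 and 31.6% of Pkm over Gm69525. A further 6.8% of Pkm is shared with Gm49759 on its own strand.

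**Figure D1:**
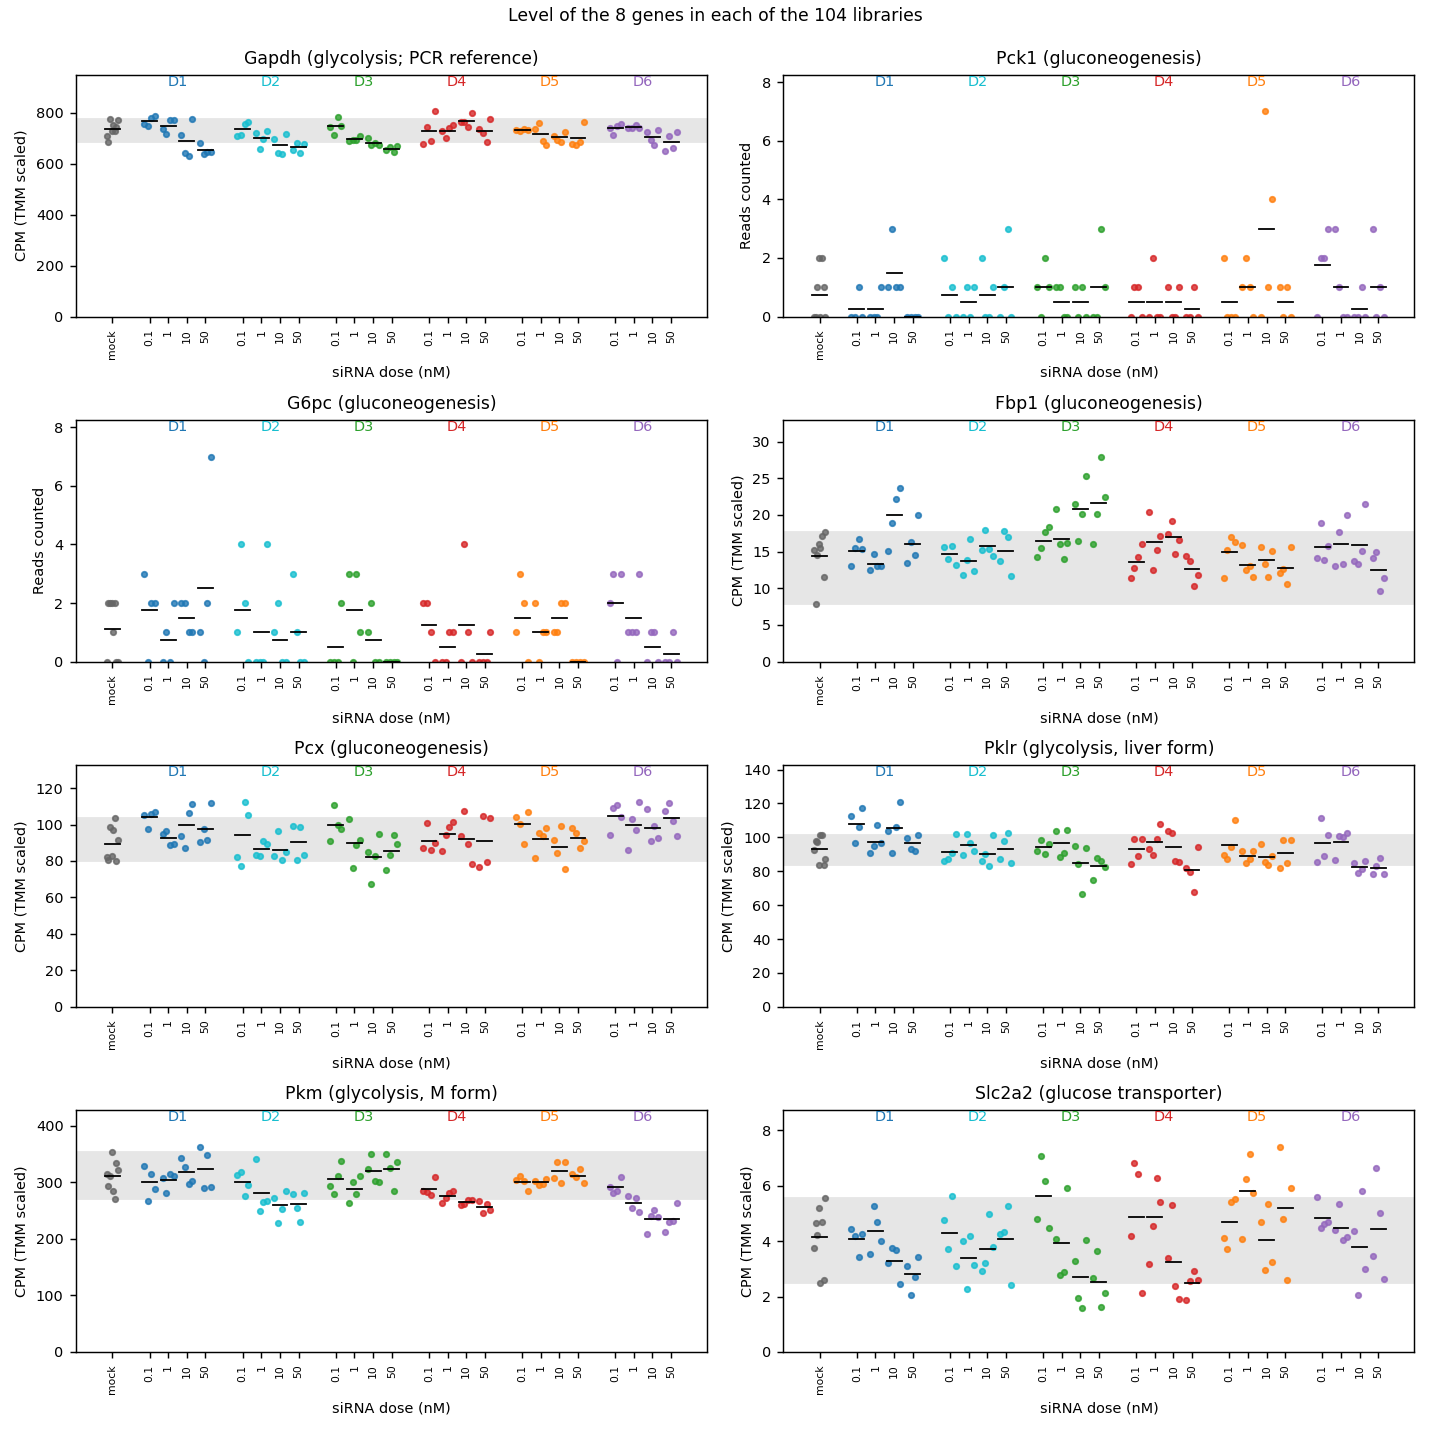
Level of each gene in every library, in CPM for 6 genes and as reads counted for Pck1 and G6pc, by siRNA and dose in nM; black lines are group means and grey bands span the 8 mock libraries. Pkm with D6 at 10 and 50 nM and Gapdh with D1, D2 and D3 at 50 nM lie under all mock libraries, and Pck1 and G6pc never exceed 7 reads.

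Pck1 and G6pc, at the start and the end of the path from oxaloacetate to free glucose, were at the floor of the measurement. Pck1 had 81 reads over all libraries together, with 0 reads in 54 libraries, more than 3 in 2 and at most 7. G6pc had 111 reads in all, with 0 reads in 45 libraries, more than 3 in 4 and at most 7. By group of 4 libraries, Pck1 ran from 0 reads (D1 at 50 nM) to 12 (D5 at 10 nM), and G6pc from 0 (D3 at 50 nM and D5 at 50 nM) to 10 (D1 at 50 nM). The 8 mock libraries held 6 and 9 reads. A count of 3 in a library of median depth is 0.602 CPM, above every group mean of both genes. Neither gene passed the filter on low counts in any comparison, and no fold change is given.

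The promoters of these 2 genes were the only ones among the members to hold TTACGTNA, a sequence like a cyclic AMP response element, searched on both strands from 250 bases before to 50 after the RefSeq start site (GRCm38.p6). It was found in 2 of the 11 windows of the 8 members and in 295 of all 32851 windows (0.898%). The matches, in capitals, are printed because they belong to the members that were barely read, and they describe letters, not binding.
Pck1, chr2:173152959-173153008, plus strand: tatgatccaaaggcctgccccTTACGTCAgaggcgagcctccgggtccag
G6pc, chr11:101367533-101367582, plus strand: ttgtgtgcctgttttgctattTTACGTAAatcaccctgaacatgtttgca

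Of the 144 tests of the other 6 members against mock, 17 were called (edgeR's quasi-likelihood test, Benjamini-Hochberg adjusted p under 0.05), 13 lower and 4 higher. That is 11.8% of the member tests, near the 9.93% called over all genes. Of 36 member tests at each dose, 0 were called at 0.1 nM (edgeR; 4 at an unadjusted p under 0.05, 0 by DESeq2), 1 at 1 nM, 5 at 10 nM and 11 at 50 nM, beside 0.0665%, 0.881%, 16.6% and 22.2% of tests over all genes. From 0.1 to 50 nM the share of all genes called was 0.32%, 0.632%, 19% and 25.9% with D1, 0.00885%, 0.00886%, 2.26% and 6.04% with D2, and 0.00886%, 0.407%, 17.4% and 28.3% with D3. The Ttr siRNAs gave 0.00886%, 2.07%, 26.6% and 34.6% (D4), 0%, 0.0444%, 8.12% and 6.55% (D5), then 0.0532%, 2.13%, 25.8% and 31.5% (D6). At 0.1 nM of D5 edgeR called 0 genes, with 1013 at an unadjusted p under 0.05 and 1 called by DESeq2. All 24 comparisons share the 8 mock libraries.

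**Figure D2:**
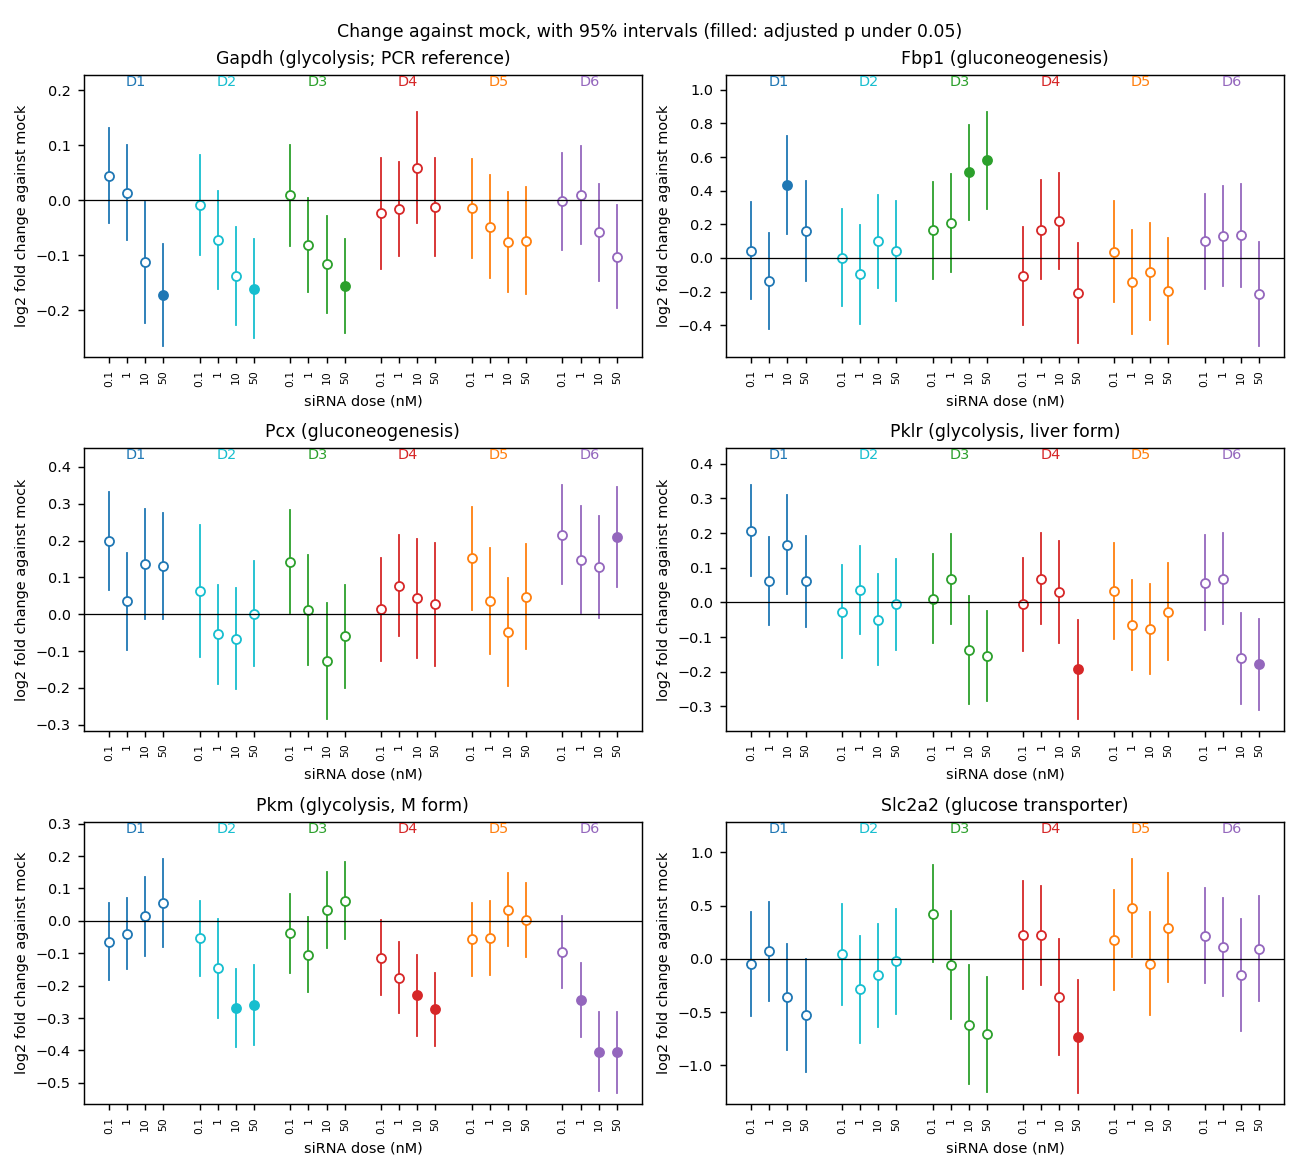
Log2 fold change against mock of 6 genes for each siRNA and dose in nM, with 95% intervals; filled points had an edgeR adjusted p under 0.05. Pkm was called lower with D2, D4 and D6, and Gapdh only at 50 nM of D1, D2 and D3.

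Pkm, the gene of the M-type pyruvate kinases, gave 7 of the 17 calls against mock, all lower. The mock libraries held 270.7 to 353.1 CPM, with a median of 312.8 CPM. With D6 they held 208, 240.2, 251 and 238 CPM at 10 nM and 212, 229.9, 231 and 263 CPM at 50 nM. All 8 D6 libraries at these doses were below the lowest mock library. The log2 change was -0.40 (SE 0.0617, adjusted p = 3.96e-06) and -0.41 (SE 0.0636, adjusted p = 5.99e-06). At 1 nM, where the libraries held 276, 254, 273 and 247 CPM and overlapped the mock range, it was -0.24 (SE 0.0585, adjusted p = 0.0165).

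With the parent D4, Pkm held 259, 261, 269 and 268 CPM at 10 nM and 266, 246, 262 and 250.3 CPM at 50 nM, again all below the mock libraries. The log2 changes were -0.23 (SE 0.0642, adjusted p = 0.00742) and -0.27 (SE 0.057, adjusted p = 0.000199). With D2 the libraries held 271, 229, 253 and 284 CPM at 10 nM and 279, 255, 229 and 282 CPM at 50 nM, overlapping the mock range. The changes there were -0.27 (SE 0.0614, adjusted p = 0.0108) and -0.26 (SE 0.0636, adjusted p = 0.0107). Between 50 and 0.1 nM of the same siRNA, Pkm fell with D6 (-0.31, SE 0.0635, adjusted p = 0.000514) and D4 (-0.17, SE 0.0595, adjusted p = 0.0322). With D2 this change was -0.21 (95% interval -0.34 to -0.0724, adjusted p = 0.139), in doses that overlapped. With D1, D3 and D5 no comparison of Pkm with mock or with 0.1 nM was called, and D5 at 50 nM held 314, 308, 323 and 298 CPM.

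The calls with D6 and D4 at 10 and 50 nM against mock held in all 19 alternatives run for each. With D2 the call at 10 nM was lost without replicate 2 or 3 of that group (adjusted p = 0.085 and 0.075, range over alternatives 0.000163 to 0.085), and the call at 50 nM without replicate 2 or 3 of its group (0.0572 and 0.0929, range 0.000408 to 0.0929). The D6 call at 1 nM was lost without D6 replicate 2 or 4 (0.0876 and 0.116, range 0.00386 to 0.116). The D4 dose call was lost without replicate 1, 2 or 4 of both doses (0.0595, 0.135 and 0.167, range 0.0265 to 0.167), while the D6 dose call held in all 11.

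The siRNAs of a target differ from each other by a single guide residue, and 12 pairs of them were compared at 10 and 50 nM, with no mock library in the fit and p-values adjusted over all genes of a pair. Of the 72 member tests 11 were called (15.3%, against 13.1% over all genes), 6 lower and 5 higher in the siRNA named first, and 8 of these were Pkm. At 10 nM the share of all genes called was 10.7% for D1 minus D2, 11.3% for D1 minus D3, 4.05% for D2 minus D3, 17.2% for D4 minus D5, 1.92% for D4 minus D6 and 17.3% for D5 minus D6. At 50 nM these shares were 14%, 23.8%, 9.81%, 22.9%, 4.18% and 20.4% in that order.

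Pkm separated D5, the GNA-G siRNA, from both other Ttr siRNAs. It was higher with D5 than with D6 by a log2 difference of 0.44 (SE 0.0642, adjusted p = 3.61e-06) at 10 nM and 0.41 (SE 0.0672, adjusted p = 8.53e-05) at 50 nM. It was lower with D4 than with D5, at log2 differences of -0.27 (SE 0.0709, adjusted p = 0.00948) and -0.28 (SE 0.0567, adjusted p = 0.000486). In these 4 comparisons the libraries did not overlap. Nor did those of D4 and D6 at 10 nM, at 258.8 to 268.8 against 207.8 to 250.9 CPM. The share of all genes without overlap was not computed. D4 minus D6 was 0.17 (95% interval 0.0313 to 0.314, adjusted p = 0.238) at 10 nM and 0.13 (95% interval 0.0127 to 0.257, adjusted p = 0.282) at 50 nM, neither called.

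Among the Hao1 siRNAs it was D2, with GNA-C, that stood apart in Pkm. D1 minus D2 was 0.29 (SE 0.0708, adjusted p = 0.00673) at 10 nM and 0.32 (SE 0.0807, adjusted p = 0.00863) at 50 nM on the log2 scale. D2 minus D3 was -0.30 (SE 0.0643, adjusted p = 0.00575) and -0.32 (SE 0.0683, adjusted p = 0.0024). D1 minus D3 was -0.01 (95% interval -0.151 to 0.128, adjusted p = 0.956) and 0.01 (95% interval -0.15 to 0.164, adjusted p = 0.965). The low side was thus the GNA-C siRNA in the Hao1 series and the parent and GNA-isoG siRNAs in the Ttr series.

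Of the 8 Pkm pair calls, D5 minus D6 at both doses and D2 minus D3 and D4 minus D5 at 50 nM held in all 11 alternatives. When a replicate number was left out of both arms, D1 minus D2 at 10 nM was lost without 1 or 2 (adjusted p = 0.0541 and 0.113, range 0.000789 to 0.113) and at 50 nM without 3 (0.111, range 0.000164 to 0.111). D2 minus D3 at 10 nM was lost without 1 or 2 (0.0596 and 0.0784, range 2.25e-05 to 0.0784), and D4 minus D5 at 10 nM without 1 (0.0533, range 0.00309 to 0.0533). The summed cholangiocyte markers, led by the keratin gene Krt19, were 222, 173.4 and 211.6 CPM with D1, D2 and D3 at 50 nM and 215.7, 204 and 222.8 CPM with D4, D5 and D6, against 150.5 to 177.4 CPM in the mock libraries. Their part in the Pkm result was not tested, and in bulk libraries fewer cells of a type and less RNA per cell cannot be told apart.

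**Figure D3:**
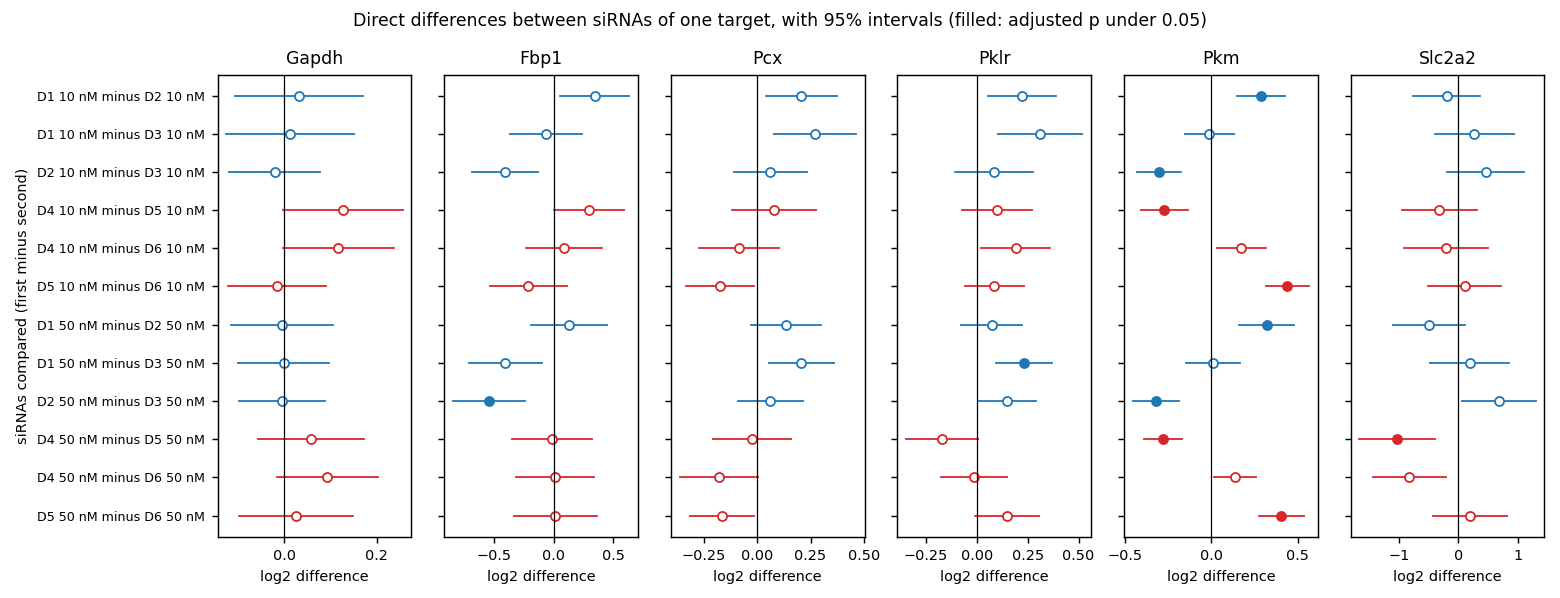
Log2 differences between siRNAs of the same target at the same dose for 6 genes, first siRNA minus second, with 95% intervals; filled points had an edgeR adjusted p under 0.05, blue for Hao1 siRNAs and red for Ttr siRNAs. Pkm holds 8 of the 11 filled points, and Gapdh none.

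Gapdh moved within a narrow band. Its mock libraries held 687.2 to 778.1 CPM, with a mean of 737.9 ± 30.5 CPM (SD, n = 8), and group means ran from 654.2 CPM with D1 at 50 nM to 768.5 CPM with D1 at 0.1 nM. At 50 nM the libraries held 681, 639.7, 648 and 648 CPM with D1, 656, 681, 644 and 679 CPM with D2 and 656, 666, 648 and 669 CPM with D3. All 12 were below the lowest mock library. The log2 changes were -0.17 (SE 0.0473, adjusted p = 0.00576), -0.16 (SE 0.0461, adjusted p = 0.0277) and -0.16 (SE 0.0433, adjusted p = 0.00552).

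These were the 3 calls of Gapdh among 24 comparisons with mock. DESeq2 made 6, adding D2 and D3 at 10 nM and the Ttr siRNA D6 at 50 nM (adjusted p = 0.0474, 0.0162 and 0.0452), so the calls were not limited to the Hao1 siRNAs under that tool. At 50 nM of the Ttr siRNAs the change was -0.01 (95% interval -0.101 to 0.0776, adjusted p = 0.871) with D4, -0.07 (95% interval -0.171 to 0.0241, adjusted p = 0.465) with D5 and -0.10 (95% interval -0.196 to -0.00929, adjusted p = 0.1) with D6, and whether the 2 series differ was not tested. The D3 call held in all 19 alternatives. The D1 call was lost in 1 of 19 (range 0.000294 to 0.0974), the fit with the replicate number as a block. The D2 call was lost without D2 replicate 1, 2 or 3 or mock replicate 3 or 7 (adjusted p from 0.0512 to 0.134, range over all alternatives 0.00175 to 0.159).

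Comparisons of 50 with 0.1 nM of an siRNA use no mock library. Over these 6, 7 of 36 member tests were called, all lower at 50 nM (19.4%, against 15.6% over all genes). The share of all genes called was 19.4% with D1, 1.85% with D2, 20.3% with D3, 25.7% with D4, 1.94% with D5 and 24.4% with D6. The 0.1 nM libraries held 755, 749, 781 and 789 CPM of Gapdh with D1 and 745, 715, 783 and 750.2 CPM with D3, all above those at 50 nM. Gapdh fell, with log2 changes of -0.22 (SE 0.0543, adjusted p = 0.0037) and -0.17 (SE 0.0494, adjusted p = 0.0138). With D2 it was -0.15 (95% interval -0.261 to -0.0449, adjusted p = 0.189) and with D4 0.00 (95% interval -0.119 to 0.122, adjusted p = 0.991). The D1 call held in all 11 alternatives, and the D3 call was lost without replicate 1 or 3 (0.0501 and 0.099, range 0.00492 to 0.099).

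Between siRNAs of the same target edgeR called 0 of 12 Gapdh tests, with 0 at an unadjusted p under 0.05 and 0 called by DESeq2. The libraries did not overlap in 2 of the 12 pairs, D4 with D5 and D4 with D6 at 10 nM. Gapdh there held 743.7 to 799.7 CPM with D4, 687.4 to 723.6 CPM with D5 and 672.7 to 734.8 CPM with D6. The largest log2 difference over the 12 pairs was 0.127. How many of all genes lacked overlap was not computed. At 50 nM the log2 difference was -0.01 (95% interval -0.116 to 0.106) for D1 minus D2, 0.00 (-0.0997 to 0.0971) for D1 minus D3, 0.06 (-0.0572 to 0.172) for D4 minus D5 and 0.09 (-0.016 to 0.202) for D4 minus D6.

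As a PCR reference, Gapdh was set beside 17 other genes used for that purpose. The SD of its log2 CPM was 0.0848 over all libraries and 0.0627 within groups. Of the 18 genes, only the elongation factor genes Eef2 (0.0735) and Eef1a1 (0.0786) had a lower SD over all libraries, and Ppia, the cyclophilin A gene, was close at 0.0856. Actb, the cytoskeletal actin gene, had an SD of 0.165 and 6 lower calls against mock, and Gusb, a lysosomal glucuronidase gene, had an SD of 0.152 and 5 higher calls. The highest SD was 0.237, for the transferrin receptor gene Tfrc.

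**Figure D4:**
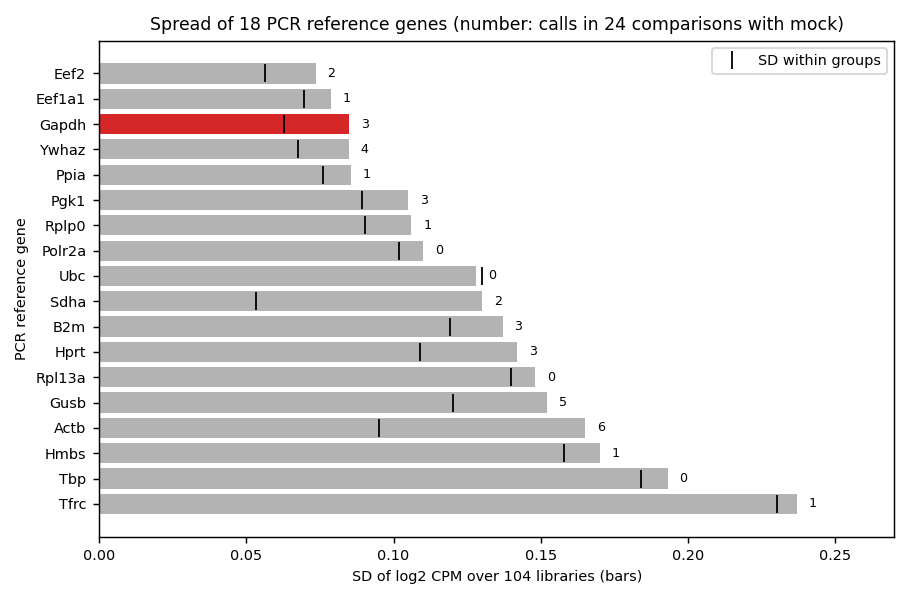
Bars give the SD of log2 CPM over all libraries for 18 PCR reference genes (Gapdh in red), black ticks the SD within groups and numbers the edgeR calls in 24 comparisons with mock. Gapdh has an SD of 0.0848 and 3 calls, and only Eef2 and Eef1a1 have a lower SD.

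Expressing the targets relative to Gapdh, as a PCR assay does, moved the share left by few percentage points. Where little target is left such a shift is small by arithmetic, while the log2 change moves by the whole Gapdh change. For Hao1 with D1 at 50 nM it went from -3.968 to -3.796. With D1 at 50 nM, Hao1 was at 6.39% of mock on edgeR's TMM scale and at 7.2% relative to Gapdh. With D3 at 50 nM it was at 2.39% and 2.67%. Over the 24 groups the share left moved by between -1.12 percentage points, with D1 at 0.1 nM, and 0.809, with D1 at 50 nM.

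The genes whose group means followed Gapdh most closely over the 25 groups, among 8641 genes with a mean of at least 10 CPM, were Rpl12 (Pearson's r = 0.891), which codes for a ribosomal protein, Pygl (r = 0.884), the liver glycogen phosphorylase gene, and Gm13394 (r = 0.869). The points share libraries, depth and scaling. For Pck1 they were Manbal (r = 0.675), Ntmt1 (r = 0.655) and Pwwp2b (r = 0.652), values that rest on the few Pck1 reads.

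Fbp1, the gluconeogenic bisphosphatase gene, gave 3 of the 4 higher calls against mock. The mock libraries held 7.88 to 17.62 CPM, with a median of 15.41 CPM. With D3 they held 21.6, 16.5, 20.1 and 25.3 CPM at 10 nM and 16.1, 20.1, 28 and 22.4 CPM at 50 nM, so that 6 of the 8 were above every mock library. The log2 changes were 0.51 (SE 0.145, adjusted p = 0.0125) and 0.58 (SE 0.147, adjusted p = 0.00303). With D1 at 10 nM, at 15.1, 18.9, 22.1 and 23.7 CPM, the change was 0.44 (SE 0.149, adjusted p = 0.0375), and at 50 nM it was 0.16 (95% interval -0.136 to 0.457, adjusted p = 0.481).

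Between siRNAs at 50 nM, Fbp1 was lower with D2, at 13.8, 17.8, 17 and 11.7 CPM, than with D3, at a log2 difference of -0.54 (SE 0.153, adjusted p = 0.0183). D1 minus D3 was -0.40 (95% interval -0.707 to -0.102, adjusted p = 0.0561). The D3 call against mock at 50 nM held in all 19 alternatives, and that at 10 nM was lost without D3 replicate 4 (adjusted p = 0.0756, range 0.00211 to 0.0756). The D1 call was lost without D1 replicate 2, 3 or 4 or mock replicate 2, 3 or 7 (adjusted p from 0.0529 to 0.149, range over all alternatives 0.0096 to 0.297), and the D2 minus D3 call without replicate 3 or 4 (0.125 and 0.138, range 0.00511 to 0.138). The 6 dose comparisons gave 0 calls by edgeR, 1 at an unadjusted p under 0.05 and 0 by DESeq2; with D3 the change was 0.41 (95% interval 0.114 to 0.701, adjusted p = 0.0553).

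Pcx, the carboxylase gene at the entry to gluconeogenesis, was called against mock with D6 at 50 nM alone, where its libraries held 108, 112, 102 and 93.5 CPM against 80 to 103.6 CPM in mock. The log2 change was 0.21 (SE 0.0696, adjusted p = 0.0193). The call was lost without D6 replicate 1 or 2 or mock replicate 7 (0.086, 0.124 and 0.052, range 0.0044 to 0.18). At 0.1 nM of D6 Pcx was at 0.22 (95% interval 0.0818 to 0.349, adjusted p = 0.346), and 50 against 0.1 nM gave -0.01 (95% interval -0.149 to 0.134, adjusted p = 0.959). The dose comparisons and the pairs gave 0 and 0 calls by edgeR, 1 and 5 at an unadjusted p under 0.05 and 0 and 0 by DESeq2.

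Pklr, the liver pyruvate kinase gene, held 83.54 to 101 CPM in the mock libraries. At 50 nM it held 81.8, 79.7, 67.7 and 94.5 CPM with D4 and 78.4, 83.1, 88 and 78.5 CPM with D6, and both groups overlapped mock. The log2 changes were -0.19 (SE 0.0732, adjusted p = 0.0375) and -0.18 (SE 0.0667, adjusted p = 0.0389). The D4 call was lost in 11 of 19 alternatives, among them without D4 replicate 1, 2 or 3 or mock replicate 2, 3, 5 or 6 (adjusted p from 0.0583 to 0.234, range over all alternatives 0.00478 to 0.234). The D6 call was lost in 12 of 19, among them without D6 replicate 1, 2 or 4 or the same mock replicates (from 0.0549 to 0.107, range 0.0179 to 0.107).

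Without mock, Pklr fell with D6 from 85.5, 111, 88.8 and 101 CPM at 0.1 nM, a log2 change of -0.24 (SE 0.0796, adjusted p = 0.0303), a call lost without replicate 2 or 4 (0.209 and 0.0964, range 0.00839 to 0.209). At 50 nM it was higher with D1, at 99.3, 93.2, 92 and 102 CPM, than with D3, at 75.1, 87.8, 86.3 and 82.3 CPM, by 0.23 (SE 0.0706, adjusted p = 0.0153). That call was lost without replicate 1 or 4 (0.127 and 0.0987, range 0.0086 to 0.154).

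Slc2a2, the GLUT2 transporter gene, had 8 to 36 reads per library, which limits what could be seen. The mock libraries held 2.49 to 5.55 CPM, and those of D4 at 50 nM 1.87, 2.56, 2.92 and 2.59 CPM, in ranges that overlapped. The log2 change was -0.73 (SE 0.269, adjusted p = 0.0324). From 0.1 to 50 nM it fell with D4 from 4.19, 6.83, 6.41 and 2.12 CPM, a log2 change of -0.96 (SE 0.323, adjusted p = 0.0257). With D3 it fell from 4.81, 7.08, 6.17 and 4.46 CPM to 2.68, 3.64, 1.61 and 2.15 CPM, with no overlap, a log2 change of -1.14 (SE 0.294, adjusted p = 0.00721). D3 at 50 nM against mock gave -0.71 (95% interval -1.25 to -0.165, adjusted p = 0.0506).

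At 50 nM Slc2a2 was lower with D4 than with D5, which held 7.4, 4.82, 2.6 and 5.92 CPM, at a log2 difference of -1.03 (SE 0.325, adjusted p = 0.0218). D4 minus D6 was -0.82 (95% interval -1.44 to -0.21, adjusted p = 0.154). The D4 call against mock was lost without D4 replicate 1, 2 or 4 or mock replicate 4 or 8 (adjusted p from 0.0578 to 0.115, range over all alternatives 0.0154 to 0.115). The D4 dose call was lost without replicate 1, 2 or 3 (0.0948, 0.177 and 0.105, range 0.00477 to 0.177) and the D3 dose call without replicate 3 (0.0579, range 0.00327 to 0.0684). The D4 minus D5 call was lost without replicate 1, 2 or 4 (0.209, 0.0755 and 0.0715, range 0.00552 to 0.209).

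The other genes of glucose metabolism came from 3 lists of 77 genes, none a member: 35 of glycolysis and gluconeogenesis, 16 of glycogen metabolism and 26 regulators. At 0.1 and 1 nM, 2 of 845 tests against mock were called. Of the glycolysis and gluconeogenesis tests, 48 of 195 were called at 10 nM (21 lower, 27 higher; 24.6%) and 58 of 195 at 50 nM (33 lower, 25 higher; 29.7%), beside 16.6% and 22.2% of all genes. For glycogen genes the counts were 11 of 72 (8 lower) and 17 of 72 (11 lower). For regulators they were 33 of 156 (14 lower) and 42 of 156 (20 lower). At these doses the lists' median log2 changes lay between -0.083 and 0.126, and those of all genes between -0.0053 and 0.0127.

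Between 50 and 0.1 nM most calls of the 3 lists were lower: 29 lower and 11 higher of 193 tests (20.7%) for glycolysis and gluconeogenesis, 9 and 2 of 72 (15.3%) for glycogen, and 24 and 9 of 156 (21.2%) for regulators, beside 15.6% of all genes. The calls over all genes in these 6 comparisons also leaned lower, with 5905 lower and 4496 higher (56.8% lower). Gys2, the liver glycogen synthase gene, passed the filter in no comparison with mock. The listed genes named next had the 3 lowest and 3 highest median log2 changes over these 6 comparisons.

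Igfbp1, which codes for an insulin-repressed binding protein of insulin-like growth factors, had the lowest median, -1.09. Its mock libraries ran from 532 to 867 CPM. With D4 it held 785, 787, 758 and 701 CPM at 0.1 nM and 111, 135, 107 and 143 CPM at 50 nM, and with D6 741, 769, 774 and 669 CPM and 143, 139, 172 and 99.5 CPM. The log2 changes were -2.61 (SE 0.0767, adjusted p = 1.51e-20) and -2.41 (SE 0.14, adjusted p = 1.85e-06). It also fell, with log2 changes of -1.21 (SE 0.15, adjusted p = 0.00151) with D3, -0.97 (SE 0.0745, adjusted p = 4.33e-10) with D1 and -0.53 (SE 0.0657, adjusted p = 8.17e-06) with D5, and with D2 the change was -0.03 (SE 0.12, adjusted p = 0.953).

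In direct comparison at 50 nM, Igfbp1 was lower with D4 than with D5, at a log2 difference of -2.10 (SE 0.083, adjusted p = 1.8e-13) and higher with D5 than with D6 by 1.94 (SE 0.137, adjusted p = 5.26e-06). D4 minus D6 was -0.15 (SE 0.182, adjusted p = 0.781). D1 minus D2 was -0.88 (SE 0.115, adjusted p = 0.000507) and D2 minus D3 1.09 (SE 0.144, adjusted p = 0.00485). Pkm and Igfbp1 were both low with D4 and D6, while in the Hao1 series D2 had the lower Pkm and the higher Igfbp1, at 702, 632, 851 and 648 CPM.

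**Figure D5:**
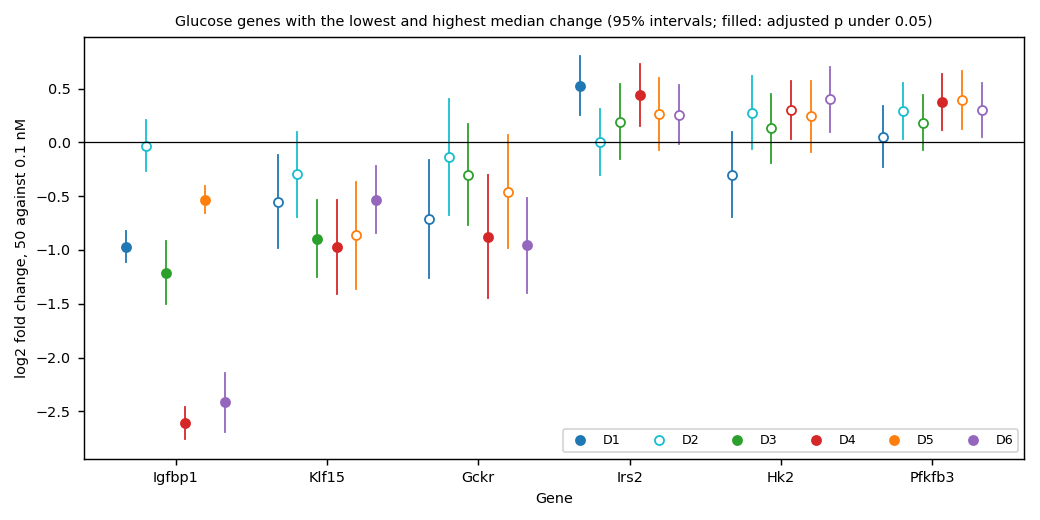
Log2 fold change of 50 against 0.1 nM within each siRNA for the 3 listed genes with the lowest and the 3 with the highest median, with 95% intervals; filled points had an edgeR adjusted p under 0.05. Igfbp1 lies at -2.61 with D4, -2.41 with D6 and -0.03 with D2.

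Klf15, which codes for a factor that activates amino acid breakdown and gluconeogenesis, had a median of -0.71 and fell with D3 (-0.89, SE 0.182, adjusted p = 0.00092), D4 (-0.97, SE 0.221, adjusted p = 0.00106) and D6 (-0.53, SE 0.158, adjusted p = 0.014). Gckr had a median of -0.59 and fell with D4 (-0.88, SE 0.291, adjusted p = 0.0242) and D6 (-0.96, SE 0.224, adjusted p = 0.00202). Its level was low, at 3.43 to 7.48 CPM with D4 at 0.1 nM and 1.76 to 3.99 CPM at 50 nM, in ranges that overlapped. With D6 it held 6.19 to 7.6 CPM and 2.8 to 3.87 CPM. Single calls of the listed genes were not recomputed in the alternatives, unlike those of members. The highest medians were those of Pfkfb3 (0.29), which makes an activator of phosphofructokinase, Hk2 (0.26), a hexokinase gene of muscle and fat, and Irs2 (0.26), which acts below the insulin receptor. Irs2 rose with D1 (0.53, SE 0.14, adjusted p = 0.00621) and D4 (0.44, SE 0.146, adjusted p = 0.0242), Pfkfb3 rose with D4 (0.38, SE 0.132, adjusted p = 0.0343), and Hk2 had an adjusted p of 0.0604 or more in each.

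The 4 listed genes found with a seed match were named for that match, outside the rule above. Foxo3, with 2 D4 matches, fell against mock with the parent D4, with log2 changes of -0.63 (SE 0.076, adjusted p = 1.31e-07) at 10 nM and -0.47 (SE 0.0723, adjusted p = 2.04e-06) at 50 nM, and -0.25 (SE 0.07, adjusted p = 0.048) at 1 nM. Foxo3 was at -0.12 (adjusted p = 0.33) and -0.14 (0.321) with D5, and -0.14 (0.151) and -0.18 (0.058) with D6. These are separate comparisons with mock, and direct tests between the Ttr siRNAs are not given here for Foxo3. At 10 nM its libraries held 38 to 42.9 CPM with D4, 52.3 to 61.6 CPM with D5 and 55.1 to 61.8 CPM with D6. Foxo3 also fell with D1 at 10 nM, at -0.29 (SE 0.0748, adjusted p = 0.00503), and rose with D3 at 50 nM, at 0.20 (SE 0.0674, adjusted p = 0.0243). The letters ATCGACA searched for those siRNAs were not found in it. With D4 at 10 and 50 nM, Foxo1 was at 0.06 (0.609) and 0.05 (0.602) and Hnf4a at 0.00 (0.976) and 0.05 (0.649), adjusted p in brackets. Both, in which ATCGACA was not found, were called with D1. Hnf4a fell at 10 nM, at -0.37 (SE 0.0735, adjusted p = 0.000508), and at 50 nM, at -0.44 (SE 0.0646, adjusted p = 1.99e-06). Foxo1 rose at these doses, at 0.21 (SE 0.0719, adjusted p = 0.0327) and 0.25 (SE 0.0737, adjusted p = 0.0103). Sik1, with a D1 match, fell with D1 at 50 nM, at -0.35 (SE 0.106, adjusted p = 0.0124), its 1 lower call. Its 6 higher calls came with D3, D4 and D5, each at 10 and 50 nM, with log2 changes of 0.36 and 0.29 for D3, 0.25 and 0.28 for D4, and 0.47 and 0.39 for D5 (adjusted p from 0.0013 to 0.0443).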

How the data were processed

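RNA was sequenced on a NextSeq500 after a stranded total RNA kit. The authors trimmed reads with fastq-mcf (mean quality 28, minimum length 36), aligned them with STAR to GRCm39, and made the deposited gene counts with featureCounts 2.0.2 from uniquely mapped reads of mapping quality 10 or more; the annotation and strand setting are not given in the sources used here. The authors' DESeq2 tables hold their own fold changes, and only the symbol column was used. The 2 runs of a library were summed without 92 ERCC spike-ins (0.425% to 1.43% of counts). edgeR 4.0.16 (R 4.3.3; TMM, filterByExpr, robust quasi-likelihood fits of the 2 groups compared, Benjamini-Hochberg) was run over all genes that passed the filter and tested on simulated data. CPM are counts scaled to TMM library size. DESeq2 1.42.0 with a beta prior, RLE factors, no filter, single runs, a replicate block, a common fit and left-out replicates were alternatives. Intervals of 95% are 1.96 SE either side. The members and lists were chosen with earlier results of these data known. Named genes were the 8 members, the 3 listed genes with the lowest and 3 with the highest median change from 0.1 to 50 nM, and the 3 most like Gapdh and Pck1 by group means.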

Additional observations from a re-analysis of the deposited data

Results flagged for a closer look

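In 3 of 150 sets, each holding the libraries of 1 group for 1 gene, 1 library lay far from the rest of its group. Chance alone gives this in about 1 in 20 sets, a higher rate than was found. Gapdh was at 709.7 CPM in replicate 4 of D3 at 1 nM against 690.9 to 693.1 CPM in the others, and at 765.8 CPM in replicate 4 of D5 at 50 nM against 672.9 to 685.7 CPM. Pklr was at 86.53 CPM in replicate 1 of D6 at 1 nM against 100.2 to 102.4 CPM.

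The 11 called differences between siRNAs of the same target, tested directly with edgeR, are differences between groups on the log2 scale. For Pkm at 10 nM they were 0.29 for D1 minus D2, -0.304 for D2 minus D3, -0.273 for D4 minus D5 and 0.44 for D5 minus D6. For Pkm at 50 nM they were 0.321, -0.322, -0.281 and 0.405 in that order. At 50 nM Pklr differed by 0.232 between D1 and D3, Fbp1 by -0.542 between D2 and D3, and Slc2a2 by -1.03 between D4 and D5.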

How the results depend on the processing

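Of 518 values recomputed for the 35 called results, 428 kept their direction and call, 90 kept the direction but lost the call, and 0 reversed. Against mock the 17 member calls became 10 to 18 with replicates left out, the lowest without replicate 2 of each siRNA group. The 7 calls of 50 against 0.1 nM became 4 with run 1 alone, 4 with run 2 alone and 4 to 7 with replicates left out, and the 11 calls between siRNAs became 6 to 11. These settings hold fewer samples or reads, and the cause was not tested further. DESeq2, on the same libraries, called Gapdh against mock 6 times in place of 3, and the cause was not tested. In 0 of 42 comparisons were all 4 correlations of same-numbered deviations over 0.1 (range -0.27 to 0.277 over 9882 genes), so the fits were left unpaired. This rule cannot exclude pairing of part of the libraries: with D6 at 50 against 0.1 nM, 3 of the 4 were over 0.1. With the replicate number as a block the calls were 16, 12 and 15 in place of 17, 7 and 11. The Gapdh calls against mock were then 1, with D1 at 50 nM at an edgeR adjusted p of 0.0974. In that setting mock replicates 5 to 8 had no siRNA library of the same number and added nothing to the estimated change. The lost calls therefore cannot tell whether libraries were paired. Slc2a2, with 8 to 36 reads per library, and Pck1 and G6pc, at the floor, are limited by depth.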
